A study of Mus musculus with 6 samples.

Results

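The genes of heparan sulfate were examined in FAC-sorted, tdTomato-positive cells of the embryonic mouse cortex. The set comprised 36 genes, taken by symbol from the 57132 genes of the deposited table: 24 enzymes that start, lengthen, sulfate or edit the chain and 12 core proteins that carry it. All 36 were listed. The choice was made by gene symbol, with earlier results of these data known. Total RNA had been sequenced from tdTomato-positive cells of the cortex at E14.5, with 3 libraries of Sst-Cre/tdTomato embryos (control) and 3 of Sst-Cre/tdTomato/Dnmt1 loxP2 embryos (Dnmt1 KO). Both groups carried the Cre recombinase in the Sst locus and a Cre-dependent tdTomato reporter in Gt(ROSA)26Sor, on a C57BL/6J background, and only the Dnmt1 KO embryos also carried floxed Dnmt1 alleles. The genotype field of the records reads Sst-Cre/tdTomato for all 6 libraries, so the groups were taken from the sample titles. Cre is driven by Sst, so both the reporter and the deletion follow every cell that has switched Sst on, at any earlier time or in any place. Cells were pooled within a genotype and the embryos' sex was not distinguished. The labels do not say whether the 3 libraries of a genotype came from different embryos. The p-values therefore measure the spread between libraries, which may be technical.

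Heparan sulfate is a long sugar chain built in the Golgi on serine residues of core proteins, of which the glypicans (lipid-anchored), the syndecans (transmembrane) and the secreted agrin and perlecan are the main ones. A linker is made first, EXT enzymes then polymerize the chain, and sulfotransferases decorate it at the N, 2-O, 6-O and 3-O positions in clustered patches. Outside the cell the sulfatases SULF1 and SULF2 remove 6-O-sulfate again. The pattern of sulfate determines which ligands bind, among them fibroblast growth factors, SLIT proteins and the chemokine CXCL12, all of which act on migrating neurons.

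Recovered reads ranged from 7154043 to 10089981 per library, and 21316 to 22792 genes were detected. Dnmt1 (chr9:20817945-20871184, minus strand, GRCm39), the targeted gene, had 3025, 2539 and 2741 normalized counts in control replicates 1, 2 and 3 and 2411, 2243 and 2255 in Dnmt1 KO replicates 1, 2 and 3. The groups did not overlap, and the Dnmt1 KO value stood at a log2 difference of -0.26 from control (SE 0.07, limma adjusted p = 0.0218). The gene-level value adds the deleted exons to the exons that remain, so it is a weak check of the deletion. Leaving out control replicate 1 raised the adjusted p to 0.0576, and leaving out Dnmt1 KO replicate 2 or 3 raised it to 0.0852 or 0.0932, so that the call was lost. It was also lost when libraries were scaled by total reads (0.972) or by quantiles (0.0901).

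The sorted cells carried the markers of their label. Sst was present at 2852 to 3068 normalized counts in control and 3154 to 3453 in Dnmt1 KO libraries, and the log2 fold change of 0.14 (SE 0.06) did not pass the test (adjusted p = 0.134). Of 16 interneuron markers 12 were higher in Dnmt1 KO and none was lower, among them Lhx6 (log2 fold change 0.33) and Erbb4 (0.51). RNA of other cells was also present and differed between the groups. The 10 markers of thalamus, hypothalamus and preoptic area summed to 2032 to 2147 normalized counts in control and 341 to 375 in Dnmt1 KO libraries, with 7 of 8 tested markers lower. Of these, Tcf7l2 had 1089 to 1168 normalized counts in control and 34.1 to 66.8 in Dnmt1 KO, and Otp had 40.7 to 50.6 in control and 0 in all Dnmt1 KO libraries, which allows up to 2.22 to 3.10 normalized counts in each (counting error only). The 10 striatal markers (5 of 8 tested lower, 3 not called) summed to 1035 to 1080 in control and 404 to 483 in Dnmt1 KO. Isl1, among the lower ones, had 84.0 to 95.8 against 2.90 to 7.23. Otp and Isl1, among others, reached the mean of 10 normalized counts needed for a test only through their control libraries. Their calls therefore depend on that filter. The radial glia markers (6 of 10 lower, 1 higher) summed to 8188 to 8870 in control and 5924 to 6071 in Dnmt1 KO, and the markers of dividing cells (8 of 10 lower) to 4370 to 4689 and 3126 to 3272. For the mural and mesenchymal list 3 of 10 tested markers were lower and none was higher, and the sums were 1047 to 1163 and 832 to 908. None of the 9 tested endothelial markers was called, with sums of 365 to 410 in control and 413 to 441 in Dnmt1 KO. The list of microglia summed to 47.3 to 67.9 and 68.2 to 91.0, that of blood to 785 to 831 and 638 to 809, that of oligodendrocyte precursors to 152 to 194 and 63.7 to 103 (1 of 6 markers was tested, and it was lower), and that of cortical excitatory neurons (4 of 11 lower, 1 higher) to 5260 to 5572 and 5174 to 5313. None of the markers on these lists was at 0 in all 6 libraries. In bulk RNA, fewer cells of a type and less RNA per cell cannot be told apart, and the part of these cells in the results below was not tested.

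**Figure D1:**
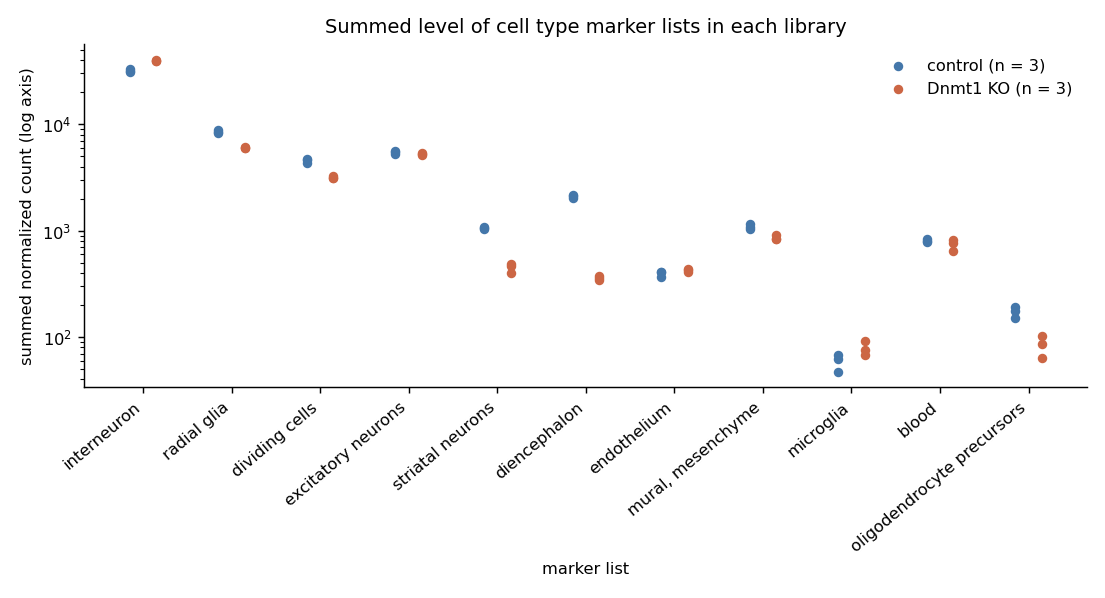
Summed normalized count (log axis) of each cell type marker list, one point per library, for control and Dnmt1 KO (n = 3 each). The diencephalic sums lie at 2032 to 2147 in control and at 341 to 375 in Dnmt1 KO, and the interneuron sums are higher in all Dnmt1 KO libraries.

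Of the 36 genes, 32 reached a mean of 10 normalized counts over the 6 libraries and were tested. Values were compared as log2(normalized count + 1), which understates changes of low genes, and a gene was called at a limma adjusted p under 0.05. In Dnmt1 KO cells 2 of the 32 were higher, Sulf1 and Gpc2 (6.25%, beside 7.64% of all 14126 genes tested), and 5 were lower, Extl3, Hs6st3, Hs3st4, Sulf2 and Hspg2 (15.6%, beside 11.6% of all genes). Hs6st3 is in this count although it passed the minimum only through its control libraries. Together 7 of 32 were called (21.9%), close to the 19.2% of all genes. The heparan sulfate genes were therefore called about as often as genes in general, and the results lie in the individual members. The groups did not overlap for 17 of the 32 (53.1%, beside 36.7% of all genes tested). The median log2 fold change was -0.15 over the 32 and 0.02 over all genes tested.

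**Figure D2:**
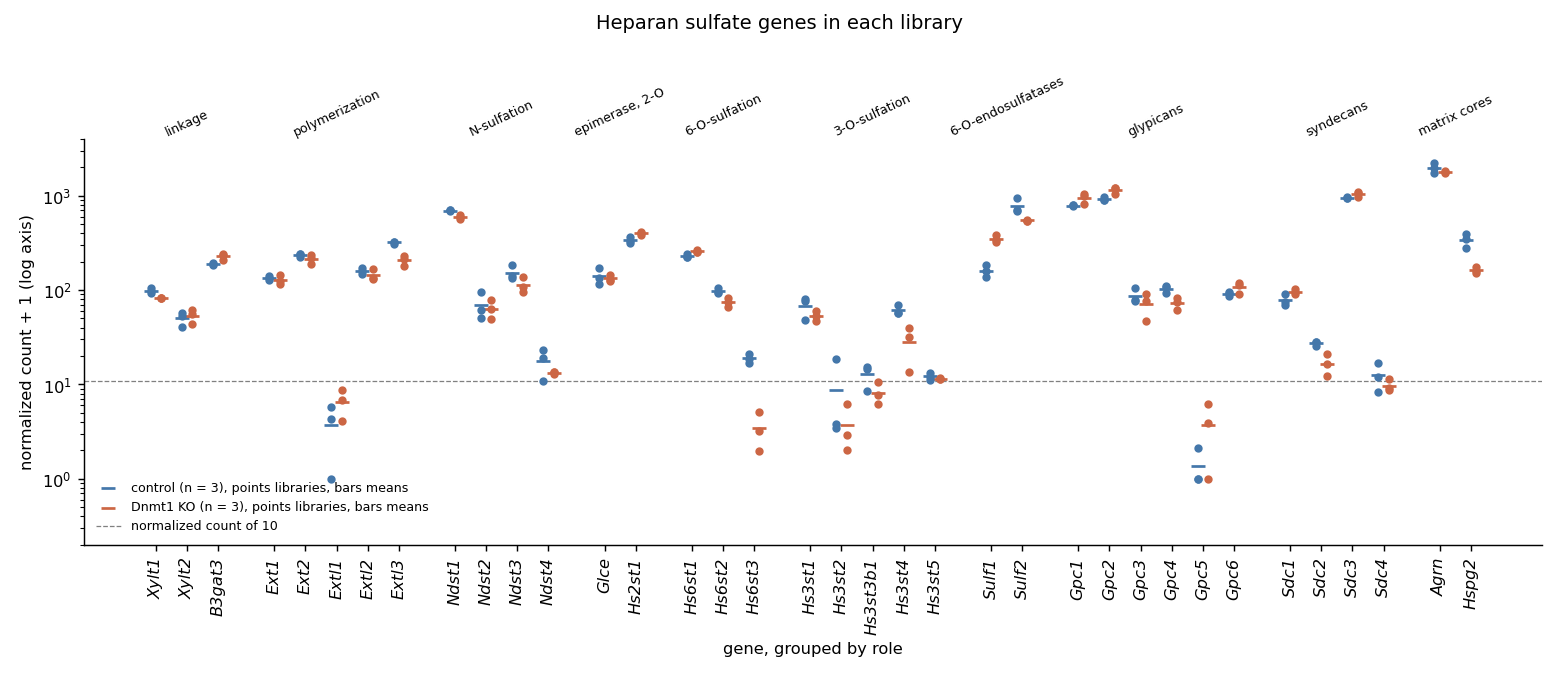
Normalized count + 1 (log axis) of the 36 genes, ordered by role, with one point per library and short bars at the group means (control and Dnmt1 KO, n = 3 each). Sulf1 lies higher, and Sulf2, Hspg2, Extl3, Hs3st4 and Hs6st3 lie lower, in all 3 Dnmt1 KO libraries than in any control library.

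Among genes compared per length (normalized count per kb of annotated exon, GENCODE M39), Gpc2, a glypican of developing neurons, and Agrn, which encodes agrin, had the highest levels. The order is that of the means over all 6 libraries. Gpc2 had 215 ± 10.4 (SD, n = 3) per kb in control and 267 ± 20.3 in Dnmt1 KO, and Agrn had 206 ± 22.9 and 187 ± 4.41. In control the Gpc2 and Agrn levels did not differ beyond their spread. Sdc3, the syndecan most typical of neurons, followed with 108 ± 2.22 and 119 ± 7.35, then Gpc1 with 80.7 ± 1.10 and 96.5 ± 11.9 and Sulf2 with 91.9 ± 16.5 and 64.2 ± 1.31 per kb. The next levels belonged to Ndst1, at 71.8 ± 1.26 per kb in control and 61.8 ± 3.15 in Dnmt1 KO, and B3gat3, at 60.6 ± 1.95 and 72.8 ± 5.27. The order differed by group, with the Sulf2 mean above that of Gpc1 in control, although these did not differ beyond their spread, and the B3gat3 mean above those of Sulf2 and Ndst1 in Dnmt1 KO. At the low end, 4 genes did not reach the minimum mean and were not tested. Gpc5 had a mean of 1.53 normalized counts over the 6 libraries, Extl1 4.14, Hs3st2 5.21 and Hs3st3b1 9.53. Just inside the limit were Sdc4 (10.1), Hs6st3 (10.2) and Hs3st5 (10.8).

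The enzymes that edit 6-O-sulfate outside the cell moved in opposite directions. Sulf1 (chr1:12762501-12931416, plus strand) had 183, 135 and 159 normalized counts in control replicates 1, 2 and 3 and 322, 379 and 341 in Dnmt1 KO replicates 1, 2 and 3. Every Dnmt1 KO library was above every control library, and the mean rose 2.18-fold, from 159 ± 23.7 (SD, n = 3) to 348 ± 29.1. The log2 fold change of Sulf1 was 1.13 (SE 0.12, adjusted p = 3.25e-05). Sulf2 (chr2:165915009-165998118, minus strand), whose product has the same activity, had 941, 692 and 707 normalized counts in control and 557, 544 and 534 in Dnmt1 KO. Control replicate 1 stood above the other control libraries, and the groups did not overlap. The Sulf2 mean fell to 0.699 of control, a log2 difference of -0.50 (SE 0.11, adjusted p = 0.00489). That call was lost with libraries scaled to their total reads (-0.24, adjusted p = 0.0928). Per kb of exon, Sulf1 made up 12.8% ± 0.947 (SD, n = 3) of the sum of both sulfatases in control and 31.4% ± 2.00 in Dnmt1 KO. The log2 ratio of Sulf2 to Sulf1 within a library does not depend on the size factor. It was 2.36, 2.35 and 2.14 in control and 0.79, 0.52 and 0.65 in Dnmt1 KO, a difference of -1.63. An exact two-sided permutation test gave p = 0.1, the smallest that 20 assignments of 3 against 3 libraries allow (adjusted p = 0.167 over 10 such ratios), so no ratio could pass at 0.05 in this design. The sum of both sulfatases per kb was 105 ± 18.3 in control and 93.6 ± 2.26 in Dnmt1 KO.

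DNMT1 maintains methylation at CpG dinucleotides, and the start regions of 4 called genes are shown for their CpG content: both sulfatases, and Hspg2 and Hs6st3, the genes with the smallest p and the largest fall, respectively, among those that fell. Each run covers 250 bases before and 50 bases from the GENCODE M39 canonical transcript start, read 5′ to 3′ on the gene's strand from GRCm39, with every CG in capitals. The start used in these cells was not examined. The regions are chr1:12762251-12762550 (plus strand) for Sulf1, chr2:165997745-165998044 (minus) for Sulf2, chr4:137195829-137196128 (plus) for Hspg2 and chr14:119374867-119375166 (plus) for Hs6st3.
Sulf1: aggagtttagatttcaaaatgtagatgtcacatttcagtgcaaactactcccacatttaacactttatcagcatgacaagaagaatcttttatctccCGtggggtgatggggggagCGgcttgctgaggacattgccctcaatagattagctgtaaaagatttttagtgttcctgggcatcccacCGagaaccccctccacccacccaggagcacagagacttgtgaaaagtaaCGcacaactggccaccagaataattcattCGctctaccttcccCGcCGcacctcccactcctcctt
Sulf2: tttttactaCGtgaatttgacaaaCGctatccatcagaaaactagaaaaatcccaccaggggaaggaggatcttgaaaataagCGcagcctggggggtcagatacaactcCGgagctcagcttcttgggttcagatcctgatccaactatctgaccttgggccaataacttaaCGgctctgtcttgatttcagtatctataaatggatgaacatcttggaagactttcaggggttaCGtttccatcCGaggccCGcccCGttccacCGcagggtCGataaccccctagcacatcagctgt
Hspg2: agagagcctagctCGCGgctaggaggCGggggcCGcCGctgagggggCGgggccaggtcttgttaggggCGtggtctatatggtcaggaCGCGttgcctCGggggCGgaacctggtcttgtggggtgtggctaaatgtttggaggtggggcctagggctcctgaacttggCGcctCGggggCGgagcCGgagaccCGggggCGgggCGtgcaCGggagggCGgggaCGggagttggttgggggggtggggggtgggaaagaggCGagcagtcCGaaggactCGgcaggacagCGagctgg
Hs6st3: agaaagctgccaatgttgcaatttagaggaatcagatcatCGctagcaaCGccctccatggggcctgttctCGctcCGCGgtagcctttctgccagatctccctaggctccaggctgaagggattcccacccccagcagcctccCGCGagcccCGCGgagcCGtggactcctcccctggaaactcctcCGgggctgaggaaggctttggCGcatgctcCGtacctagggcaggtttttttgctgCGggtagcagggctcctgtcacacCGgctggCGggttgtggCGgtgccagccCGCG
These windows held 7, 11, 25 and 19 CG. The motif CG reads the same on both strands and cannot overlap itself. Among 21691 protein-coding genes, 62.3% had at least as many CG as Sulf1, 50.6% as many as Sulf2, 17.2% as many as Hspg2 and 30.5% as many as Hs6st3. The median over the 36 genes was 17.5 CG, and over all protein-coding genes it was 11. At least 15 CG were found in 21 of the 36 (58.3%) and in 40.5% of all protein-coding genes. The 21691 genes were not limited to those expressed in these cells, so these comparisons are not matched for expression. The 5 genes that fell ranged from 3 CG (Extl3) to 49 (Hs3st4), and the genes that rose, Sulf1 and Gpc2, had 7 and 22. The genes that fell thus spanned the whole range of the 36, which was also 3 to 49 CG.

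The 6-O-sulfotransferases add the sulfate that SULF1 and SULF2 take off. Of the 3 genes, 1 fell. Hs6st3 (chr14:119375117-120107227, plus strand) had 16.1, 19.9 and 17.8 normalized counts in control and 4.13, 0.97 and 2.22 in Dnmt1 KO, and the groups were far apart. These values come from 50 reads in control and 8 reads in Dnmt1 KO, a ratio of 0.132 (95% exact interval 0.0540 to 0.281, counting error only). The fitted log2 fold change of Hs6st3 was -2.56 (SE 0.52, adjusted p = 0.00378). Because Hs6st3 passed the minimum mean only through control, this test depends on the filter. Without that filter the adjusted p of Hs6st3 was 0.00277, and at a minimum mean of 50 the gene was not tested. Hs6st1, the main 6-O-sulfotransferase in these cells by level, had 223, 225 and 242 normalized counts in control and 254, 254 and 265 in Dnmt1 KO. Its groups did not overlap, but the log2 fold change of 0.16 (SE 0.10) did not pass the test (adjusted p = 0.269). Hs6st2 had 104, 91.8 and 93.5 in control and 81.6, 74.5 and 65.1 in Dnmt1 KO, and the difference of -0.38 on the log2 scale (SE 0.16) was not called (adjusted p = 0.115). Per kb, Hs6st1 accounted for 63.0% ± 1.40 of the 3 genes in control and 78.4% ± 2.73 in Dnmt1 KO, while Hs6st3 accounted for 14.2% ± 1.52 and 2.12% ± 1.34. The summed level of the 3 genes was 54.0 ± 1.15 per kb in control and 48.5 ± 1.17 in Dnmt1 KO. The log2 ratio of Hs6st1 to Hs6st2 was 1.10 to 1.36 in control and 1.63 to 2.01 in Dnmt1 KO (exact permutation p = 0.1, adjusted 0.167).

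**Figure D3:**
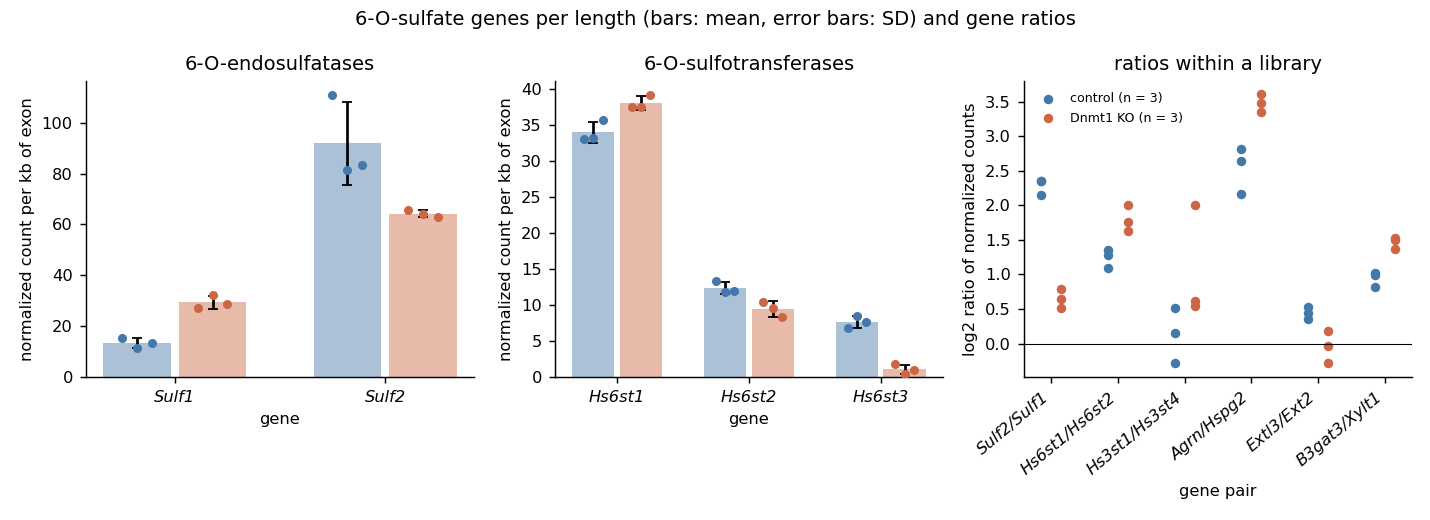
Normalized count per kb of exon of the sulfatase and 6-O-sulfotransferase genes (bars, mean; error bars, SD; points, libraries; n = 3 per group) and log2 ratios of gene pairs within each library. The log2 ratio of Sulf2 to Sulf1 lies at 2.14 to 2.36 in control and at 0.52 to 0.79 in Dnmt1 KO.

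The 3-O-sulfotransferases add the rarest sulfate, in several isoforms that create different binding sites. Hs3st4 (chr7:123582092-123998212, plus strand), an isoform of neurons, had 67.9, 55.8 and 56.8 normalized counts in control and 12.4, 31.0 and 38.5 in Dnmt1 KO. The groups did not overlap, although the Dnmt1 KO libraries spread widely. The log2 fold change of Hs3st4 was -1.25 (SE 0.35, adjusted p = 0.0234), and the call was lost without control replicate 1 (-1.16, adjusted p = 0.0656). Over the 6 omissions the log2 fold change of Hs3st4 ran from -1.56 to -0.78, the latter without Dnmt1 KO replicate 1. Hs3st1 had 75.3, 80.4 and 46.8 in control and 52.7, 45.5 and 59.2 in Dnmt1 KO, which overlapped (log2 fold change -0.33, SE 0.23, adjusted p = 0.356). Hs3st5 had 10.0 to 12.3 normalized counts in every library (log2 fold change -0.08, SE 0.38). Hs3st2 and Hs3st3b1 were below the minimum mean. Hs3st2 had 2.47, 2.84 and 17.8 normalized counts in control and 1.03 to 5.18 in Dnmt1 KO, so control replicate 3 stood apart. The summed level of the 5 genes was 38.8 ± 2.16 per kb in control and 23.0 ± 5.84 in Dnmt1 KO, to which Hs3st4 contributed 48.5% ± 2.68 and 35.7% ± 11.5. Within a library, the ratio of Hs3st1 to Hs3st4 on the log2 scale was -0.27 to 0.52 in control and 0.54 to 2.00 in Dnmt1 KO (exact permutation p = 0.1, adjusted 0.167).

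The enzymes that start and lengthen the chain showed 1 call. Extl3 (chr14:65287059-65387357, minus strand), which adds the first N-acetylglucosamine that commits a chain to heparan sulfate, had 326, 308 and 324 normalized counts in control and 214, 231 and 180 in Dnmt1 KO. No Dnmt1 KO library reached a control value, and the mean fell to 0.652 of control (log2 fold change -0.62, SE 0.11, adjusted p = 0.00149). Ext1 and Ext2 encode the polymerase complex. Ext1 had 127 to 139 normalized counts in control and 114 to 143 in Dnmt1 KO (log2 fold change -0.08, SE 0.13), and Ext2 had 224 to 240 and 188 to 237 (-0.13, SE 0.11). Extl2, which can transfer the first sugar of the chain and limits its growth, had 149 to 172 and 129 to 165 (-0.16, SE 0.13). None of these 3 passed the test, and their groups overlapped. The log2 ratio of Extl3 to Ext2 was 0.36 to 0.53 in control and -0.29 to 0.18 in Dnmt1 KO (exact permutation p = 0.1, adjusted 0.167).

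Of the linkage enzymes, which assemble the linker shared with chondroitin sulfate, none was called. Xylt1, a xylosyltransferase that adds the first sugar, had 104, 97.4 and 92.4 normalized counts in control and 80.5, 82.2 and 82.2 in Dnmt1 KO. Its groups did not overlap, and the log2 fold change was -0.26 (SE 0.15, adjusted p = 0.251). Xylt2, the other xylosyltransferase, had 40.1 to 56.8 and 42.3 to 60.7 (0.08, SE 0.22). B3gat3, which adds the glucuronic acid that completes the linker, had 183, 195 and 189 in control and 209, 233 and 240 in Dnmt1 KO, without overlap (log2 fold change 0.26, SE 0.11, adjusted p = 0.105). The log2 ratio of B3gat3 to Xylt1 was 0.81 to 1.03 in control and 1.36 to 1.53 in Dnmt1 KO (exact permutation p = 0.1, adjusted 0.167). Of the other 4 linker genes, Pxylp1, a phosphatase that removes the phosphate from the linker xylose, was called lower (log2 fold change -0.29, SE 0.09, adjusted p = 0.0427). The Pxylp1 call was lost in 11 of 19 alternatives (adjusted p = 0.0506 to 0.83), among them the omission of any 1 of the 6 libraries and scaling by total reads (-0.028, adjusted p = 0.83). No other linker gene was called.

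The N-deacetylase/N-sulfotransferases make the first modification, on which the later ones depend. Ndst1, the main form in most tissues, had 704, 698 and 680 normalized counts in control and 628, 567 and 597 in Dnmt1 KO. The groups did not overlap, and the adjusted p of 0.0550 fell just outside the threshold (log2 fold change -0.22, SE 0.07). Ndst3 had 182, 133 and 140 in control and 136, 106 and 93.3 in Dnmt1 KO, with a small overlap (log2 fold change -0.44, SE 0.17, adjusted p = 0.0894). Ndst2 had 50.1 to 93.5 and 48.5 to 77.0 (-0.10, SE 0.25), and Ndst4, the lowest of the 4, had 9.88 to 22.3 and 11.8 to 12.6 (-0.35, SE 0.39). Ndst1 made up 72.0% ± 3.78 of the 4 genes per kb in control and 72.7% ± 1.41 in Dnmt1 KO, so it was the predominant form in both groups. Of the enzymes that follow, the epimerase Glce, which converts glucuronic to iduronic acid, had 115 to 172 and 124 to 145 (-0.08, SE 0.16). The 2-O-sulfotransferase gene Hs2st1 had 315, 365 and 332 in control and 408, 382 and 404 in Dnmt1 KO, without overlap (log2 fold change 0.24, SE 0.09, adjusted p = 0.0790).

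**Figure D4:**
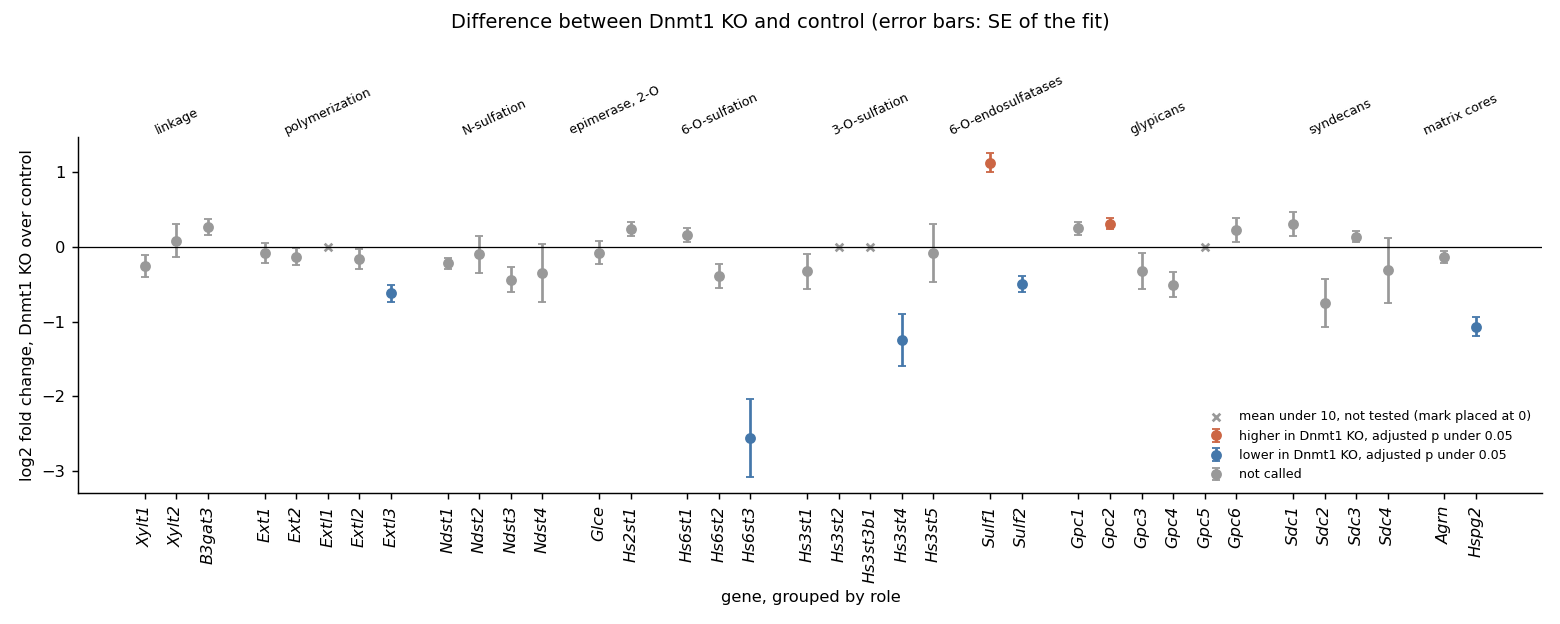
Log2 fold change of Dnmt1 KO over control for the 32 tested genes, ordered by role (error bars, SE of the limma fit). The 2 genes called higher are Sulf1 and Gpc2, and the 5 called lower run from -0.50 (Sulf2) to -2.56 (Hs6st3). The 4 genes with a mean under 10 are marked at 0.

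Among the core proteins 1 gene fell and 1 rose. Hspg2 (chr4:137196079-137298231, plus strand) encodes perlecan, a large secreted proteoglycan of basement membranes. It had 351, 390 and 280 normalized counts in control replicates 1, 2 and 3 and 175, 157 and 150 in Dnmt1 KO replicates 1, 2 and 3. Every Dnmt1 KO library was below every control library, and the mean fell to 0.472 of control (log2 fold change -1.07, SE 0.13, adjusted p = 7.07e-05). Perlecan is made by vessel, mural and meningeal cells as well as by neural progenitors. Beside it, none of 9 tested endothelial markers was called. Of 10 tested mural and mesenchymal markers 3 were lower and 7 were not called, and of 10 radial glia markers 6 were lower, 1 was higher and 3 were not called. Their part in the Hspg2 value was not tested. Agrn, which encodes the other basement membrane proteoglycan, had 2195, 1755 and 1982 in control and 1792, 1753 and 1838 in Dnmt1 KO. The Agrn groups overlapped, and the log2 fold change of -0.13 (SE 0.08) did not pass the test (adjusted p = 0.261). The log2 ratio of Agrn to Hspg2 was 2.17 to 2.82 in control and 3.35 to 3.60 in Dnmt1 KO (exact permutation p = 0.1, adjusted 0.167).

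Of the 5 tested glypicans, Gpc2 (chr5:138271917-138278288, minus strand) rose. It had 975, 907 and 891 normalized counts in control and 1047, 1192 and 1204 in Dnmt1 KO. The groups did not overlap, and the mean was 1.24-fold that of control (log2 fold change 0.31, SE 0.08, adjusted p = 0.0119). The Gpc2 call was lost on leaving out Dnmt1 KO replicate 2 (0.28, adjusted p = 0.0587) or 3 (0.27, adjusted p = 0.0718). Gpc1, abundant in neurons, had 774, 788 and 795 in control and 809, 982 and 1029 in Dnmt1 KO, with a log2 fold change of 0.25 (SE 0.09) that did not pass (adjusted p = 0.0647). Gpc6, which is known in astrocytes for promoting synapse formation, had 84.6 to 93.7 and 89.6 to 118 (0.23, SE 0.16). Gpc4, expressed in neural progenitors, had 91.4, 106 and 110 in control and 60.9, 73.5 and 82.2 in Dnmt1 KO, without overlap (log2 fold change -0.51, SE 0.17, adjusted p = 0.0528). Gpc3, a regulator of growth, had 74.7 to 105 and 45.5 to 89.8 (-0.32, SE 0.24). Gpc2 made up 61.0% ± 0.706 of all glypicans per kb in control and 64.8% ± 1.16 in Dnmt1 KO.

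The syndecans showed no call among the 4 genes. Sdc3, the predominant form, had 948, 935 and 973 normalized counts in control and 979, 1106 and 1066 in Dnmt1 KO, without overlap (log2 fold change 0.14, SE 0.07, adjusted p = 0.188). Sdc1 had 69.0 to 88.9 and 88.8 to 102 (0.31, SE 0.16, adjusted p = 0.208). Sdc2 had 27.2, 27.4 and 24.5 in control and 11.4, 15.5 and 19.99 in Dnmt1 KO, without overlap (log2 fold change -0.75, SE 0.32, adjusted p = 0.119). Sdc4 had 7.41 to 16.1 and 7.74 to 10.3 (-0.32, SE 0.44). Of the 10 log2 ratios within a library, 4 overlapped between the groups, namely Ndst1 to Ndst3 (difference 0.22, exact permutation p = 0.4), Hs2st1 to Glce (0.32, p = 0.2), Gpc2 to Gpc1 (0.059, p = 0.4) and Sdc3 to Sdc1 (-0.17, p = 0.4). Their adjusted p was 0.286 for Hs2st1 to Glce and 0.4 for the others. Sdc3 made up 80.5% ± 2.62 of the syndecans per kb in control and 80.9% ± 0.177 in Dnmt1 KO.

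Some of these genes lie on the same stretch of a chromosome. On the X chromosome Hs6st2, Gpc4 and Gpc3 follow in this order on the minus strand. Between Hs6st2 and Gpc4 lie 369 kb with 2 protein-coding genes, and between Gpc4 and Gpc3 lie 107 kb without any. On chromosome 14 Gpc5, Gpc6 and Hs6st3 follow on the plus strand, with gaps of 400.1 kb and 1158 kb, the latter containing 10 protein-coding genes. Each trio thus holds a pair of glypicans and a 6-O-sulfotransferase that is not their direct neighbour. In the X trio all 3 log2 fold changes were negative (-0.38, -0.51 and -0.32), and none passed the test. In the chromosome 14 trio Hs6st3 fell, Gpc6 did not pass the test, and Gpc5 was too low to be tested. Sex-linked transcripts moved as well: Xist had 2605 to 2956 normalized counts in control and 1956 to 1977 in Dnmt1 KO, and the Y-linked Kdm5d had 56.8 to 81.4 and 166 to 193. All 4 Y-linked genes of the list rose and Xist fell. The part of this in the X-linked members was not tested. The 36 genes had long bodies, with a median of 106 kb, and 20 of them (55.6%) exceeded 100 kb, beside 17.3% of the 11990 tested protein-coding genes. Of the 5 genes that fell, 4 exceeded 100 kb, and of the 2 that rose, 1 did. Extl3 (100.3 kb) and Hspg2 (102.2 kb) passed that length only narrowly, and the median of the 5 was 102.2 kb.

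The remaining pathway was described by counts, to be read beside the 19.2% of all genes tested that were called. Of 10 genes that supply nucleotide sugars and sulfate, 7 were tested and none was called. Of 10 genes that cleave or degrade the chain in lysosomes, 7 were tested and none was called. Of 4 genes for release of core proteins, 2 were tested, and Adam10, a sheddase, was called higher (log2 fold change 0.23, SE 0.07, adjusted p = 0.0464). The Adam10 call was lost in 10 of 19 alternatives (adjusted p = 0.0627 to 0.159), among them the omission of any 1 of the 6 libraries. The other 3-O-sulfotransferases, 2 genes, were too low to be tested. Of 11 other proteins that can carry heparan sulfate, 9 were tested, 1 rose and 2 fell (33.3% called). Among these Spock1 (testican 1) rose (log2 fold change 0.41, SE 0.07, adjusted p = 0.00206), and Spock2 (testican 2) fell (-0.49, SE 0.09, adjusted p = 0.00197).

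Among secreted ligands that bind heparan sulfate, 11 of 19 genes were tested, 1 rose and 3 fell (36.4% called, beside 19.2% of all genes). The other 8 were below the minimum mean and are not in these counts. Of these, Fgf8 had 0 to 2.47 normalized counts in control and 11.6 to 12.4 in Dnmt1 KO. Fgf17 had 3.34 to 3.78 and 8.71 to 12.4. Both come from few reads, and the groups of the other untested ligands overlapped. Cxcl12, a chemokine that guides migrating interneurons, had 54.3, 55.8 and 75.7 normalized counts in control and 96.0, 126 and 119 in Dnmt1 KO (log2 fold change 0.87, SE 0.18, adjusted p = 0.00483). The repellents Slit1 (-0.81, SE 0.11, adjusted p = 0.000208) and Slit2 (-0.50, SE 0.12, adjusted p = 0.00973) and the growth factor Mdk (-0.40, SE 0.12, adjusted p = 0.0387) fell. The Mdk call was lost in 7 of 19 alternatives. These were scaling by total reads (-0.14, adjusted p = 0.387), limma-voom (adjusted p = 0.0594) and the omission of any 1 library but control replicate 2 (adjusted p = 0.0764 to 0.124). Slit2 lost its call with libraries scaled to total reads (adjusted p = 0.109). Among 16 receptors that signal through or bind these proteoglycans, all tested, 2 rose and 7 fell (56.25% called, beside 19.2% of all genes). Cxcr4, the CXCL12 receptor, had 231, 228 and 189 normalized counts in control and 376, 425 and 403 in Dnmt1 KO (log2 fold change 0.89, SE 0.10, adjusted p = 5.83e-05). Robo1 and Robo2, the SLIT receptors, fell (-0.91, SE 0.08, adjusted p = 4.53e-06, and -0.68, SE 0.08, adjusted p = 6.20e-05), as did Fgfr3 (-0.91, SE 0.12, adjusted p = 0.000122), a growth factor receptor that needs heparan sulfate as cofactor. Ptprs, the most abundant receptor of the list, also fell (log2 fold change -0.22, SE 0.06, adjusted p = 0.0249), but its sign turned when libraries were scaled by total reads (0.038). The Ptprs call was also lost on leaving out control replicate 1 or Dnmt1 KO replicate 1, 2 or 3 (adjusted p = 0.0542 to 0.0877). The median log2 fold change was -0.28 over the 16 receptors and 0.09 over the 11 ligands, beside 0.02 over all genes tested.

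Scaling by total reads in place of the authors' size factors moved the median of all genes by 0.25 on the log2 scale, to 0.27, and turned the split of calls over all genes from 1079 higher and 1638 lower to 5046 higher and 1062 lower. Quantile normalization gave 1452 higher and 1369 lower. Under scaling by total reads 9 of the 32 tested members were called higher and 4 lower, beside 5046 and 1062 of all 14126 genes. B3gat3, Hs2st1, Hs6st1, Gpc1, Gpc6, Sdc1 and Sdc3 then joined Sulf1 and Gpc2.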

How the data were processed

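Total RNA of tdTomato-positive cortical cells was depleted of ribosomal RNA, and 6 libraries were sequenced. The submitters' processing notes name STAR 2.7.11b, Trim Galore 0.6.10, Salmon 1.10.3, DESeq2 1.42.1 and the GRCm39 build. The signal used here is the authors' deposited normalized count per gene (gene counts divided by a size factor per library). Deposited tables of the authors' own fold changes, p-values and enrichment scores were not used.

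All values were whole multiples of 1 step per library (100% at a tolerance of 0.001), so reads were recovered. Genes with a mean of at least 10 were fitted as log2(value + 1) with limma 3.58.1 (eBayes with trend, group as the only term, two-sided, Benjamini-Hochberg over 14126 genes). On recovered reads, edgeR 4.0.16 called 1050 genes higher and 1662 lower, and DESeq2 1.42.0 called 753 and 1556. Lengths, positions and sequences came from GENCODE M39 and GRCm39; 0.879% of listed genes had no annotation.

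All heparan sulfate genes and Dnmt1 are named, and other genes were drawn from the up to 4 with the smallest p and the most abundant gene of each other list. Sst, added to check the label, and Fgf8 and Fgf17, among the untested ligands, lie outside this rule. They were chosen after their values were seen. Some genes within the rule are not reported here. Members, lists and tests were chosen with earlier results of these data known. Alternatives were other pseudocounts, filters, scalings and tools, the replicate block and leaving out each library. No libraries were merged, since chi-square per gene within a group was 3.47 to 12.7. Fits were tested on simulated data.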

Additional observations from a re-analysis of the deposited data

How the results depend on the processing

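Of the 7 called genes, Sulf1, Hspg2 and Extl3 kept their call and direction in all 19 alternatives. Hs6st3 kept its own in the 18 alternatives in which it was tested. Scaling by total reads gave 9 members higher, with 5046 higher and 1062 lower over all genes. It turned the signs of Ext1 (0.18), Ext2 (0.13), Extl2 (0.093), Ndst1 (0.041), Ndst2 (0.16), Glce (0.18), Hs3st5 (0.16), Agrn (0.12) and Ptprs (0.038). Quantile normalization turned those of Ndst2 (0.0032), Hs3st5 (0.24) and Sdc4 (0.030). Leaving out 1 library gave 1 to 3 members higher and 5 to 6 lower, with 528 to 973 higher and 1214 to 1539 lower over all genes, and the log2 fold change changed sign for Glce (-0.21 to 0.079 over the 6 omissions), Xylt2 (-0.059 to 0.23) and Ndst2 (-0.29 to 0.15). Of these, Ptprs alone had been called. The single omissions with over 1.5 times fewer genes higher were those of Dnmt1 KO replicate 2 (569) and Dnmt1 KO replicate 3 (528), each with 1 member higher, Gpc2 being lost. Gpc4 and Ndst1, just outside the threshold, passed it in 3 of 19 alternatives each. Apart from the shift in scaling given above, the cause was not tested.

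The replicate numbers did not pair the libraries, since the deviations of same-numbered libraries correlated at -0.018, 0.064 and -0.031. A fit with a replicate block gave 2 members higher and 6 lower, Ndst3 being added (adjusted p = 0.0483), and 945 higher and 1583 lower over all genes. At 3 libraries per group, genes of a few reads, such as Hs6st3, Gpc5 and Hs3st2, are limited by counting error.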

Other observations

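Chondroitin sulfate shares its linker and xylosyltransferases with heparan sulfate. Of 16 genes of chondroitin and dermatan sulfate synthesis 13 were tested, 1 rose and 1 fell (15.4% called, beside 19.2% of all genes). Chst11, a 4-O-sulfotransferase, had 153, 147 and 169 normalized counts in control and 243, 237 and 218 in Dnmt1 KO (log2 fold change 0.57, SE 0.11, limma adjusted p = 0.00287). Chst3, a 6-O-sulfotransferase, had 53.1, 36.9 and 27.8 in control and 16.5, 20.3 and 15.5 in Dnmt1 KO (-1.09, SE 0.30, adjusted p = 0.0243). The groups of Chst11 and of Chst3 did not overlap. The Chst3 call was lost under quantile normalization and without control replicates 1 or 2 or Dnmt1 KO replicates 1 or 3 (adjusted p = 0.0526 to 0.0977). Of 9 chondroitin sulfate core proteins 7 were tested and 1 was called (14.3%, beside 19.2% of all genes). Ptprz1, a receptor phosphatase that carries these chains and is abundant in radial glia, fell. It had 1041, 1070 and 1084 in control and 673, 521 and 581 in Dnmt1 KO (-0.85, SE 0.09, adjusted p = 2.21e-05). Beside it, 6 of 10 radial glia markers were lower, 1 was higher and 3 were not called, and 8 of 10 markers of dividing cells were lower. Their part in the Ptprz1 value was not tested.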
